A study of Rattus norvegicus with 18 samples.

Results

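The genes described here are 10 transcripts of the integrated stress response and the unfolded protein response: Atf4, Ddit3, Atf3, Asns, Trib3, Chac1, Xbp1, Hspa5, Hsp90b1 and Herpud1. The rule is a list of symbols that uses no measured value, although the list was drawn up with earlier results of these data known, and all 10 were found among the 13188 genes of the table. RNA-seq was measured in 18 libraries from HO15.19, a Rat1 fibroblast line that lacks functional endogenous myc (myc−/−). The sample labels give growth in 10% serum, where the culture methods of the paper give a lower share. There were 6 groups of 3 cultures, all on the same myc−/− background. The groups were myc−/− cells without transfection, myc−/− cells with a control siRNA (siCtrl), cells made to express human MYC by viral infection without transfection (myc−/− + MYC), and MYC-expressing cells transfected with siCtrl, siAHR-2 or siAHR-5, the last 2 being siRNAs against the aryl hydrocarbon receptor AHR. According to the paper, the myc−/− controls of its RNA-seq expressed a vector. Transfected cells received 40 nM siRNA for 48 h. All groups come from this single line, with MYC stably added only in the MYC-expressing groups. No source says whether the 3 cultures of a group were separate infections, so p-values measure the spread between these cultures.

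Cells answer several kinds of stress by phosphorylating the translation factor eIF2, which slows protein synthesis in general while it favours translation of the transcription factor ATF4. ATF4 works mainly through its protein, so its mRNA level reports the pathway only in part. With C/EBP-family partners it acts on genes of amino acid supply such as Asns, and on the regulators Ddit3 (CHOP), Atf3 and Trib3 and the glutathione-degrading enzyme Chac1. Unfolded protein in the endoplasmic reticulum (ER) activates the sensors PERK, IRE1 and ATF6. PERK is one of the eIF2 kinases, IRE1 splices the Xbp1 mRNA, and ATF6 and spliced XBP1 raise the ER chaperones Hspa5 (BiP) and Hsp90b1 (GRP94) and the degradation factor Herpud1. Spliced and unspliced Xbp1 cannot be separated in gene-level values.

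The promoters of the genes past the cutoffs in the comparisons are shown first where they hold a response element of these pathways, with that of Atf4. Each is the 250 bases before the annotated start in RefSeq (GRCr8; 9 of the 10 genes matched a window, and Atf3 is named only), read 5′ to 3′ along the gene. Capitals mark the ER stress elements ERSE (CCAAT, then 9 bases of any kind, then CCACG) in the chaperone genes and Xbp1, ERSE-II (ATTGG, 1 base of any kind, then CCACG) and the C/EBP-ATF response element CARE (TGATGNAA) in Herpud1, CARE in Chac1 and Trib3, and the E-box (CACGTG), the core sequence that MYC-MAX can bind, in a shorter stretch of the Atf4 window. Both strands were searched, so a match may read as its reverse complement.
Hspa5, ERSE, chr3:38452766-38453015, plus strand: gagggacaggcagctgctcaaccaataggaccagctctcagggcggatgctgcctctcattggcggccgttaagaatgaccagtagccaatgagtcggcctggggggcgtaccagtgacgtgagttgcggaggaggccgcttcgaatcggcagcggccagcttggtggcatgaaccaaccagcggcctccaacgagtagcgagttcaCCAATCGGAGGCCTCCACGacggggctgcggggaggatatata
Hsp90b1, ERSE on either strand, chr7:23012294-23012543, minus strand: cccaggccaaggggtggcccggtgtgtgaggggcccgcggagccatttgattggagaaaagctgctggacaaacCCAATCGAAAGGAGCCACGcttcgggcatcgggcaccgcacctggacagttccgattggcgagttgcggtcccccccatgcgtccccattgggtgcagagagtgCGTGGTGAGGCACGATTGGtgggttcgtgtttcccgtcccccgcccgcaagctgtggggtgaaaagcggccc
Xbp1, ERSE, chr14:84604373-84604622, plus strand: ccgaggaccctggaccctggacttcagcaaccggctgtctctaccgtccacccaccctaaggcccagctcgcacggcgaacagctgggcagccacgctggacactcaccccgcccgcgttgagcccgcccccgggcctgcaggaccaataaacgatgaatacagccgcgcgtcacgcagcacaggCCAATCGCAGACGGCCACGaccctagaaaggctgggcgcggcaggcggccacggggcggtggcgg
Herpud1, CARE then ERSE-II, chr19:10614708-10614957, minus strand: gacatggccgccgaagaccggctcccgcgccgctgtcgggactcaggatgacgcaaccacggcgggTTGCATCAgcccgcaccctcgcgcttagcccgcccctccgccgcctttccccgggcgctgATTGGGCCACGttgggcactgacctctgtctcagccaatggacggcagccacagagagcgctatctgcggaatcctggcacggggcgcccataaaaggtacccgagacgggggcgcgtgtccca
Chac1, CARE, chr3:126795881-126796130, plus strand: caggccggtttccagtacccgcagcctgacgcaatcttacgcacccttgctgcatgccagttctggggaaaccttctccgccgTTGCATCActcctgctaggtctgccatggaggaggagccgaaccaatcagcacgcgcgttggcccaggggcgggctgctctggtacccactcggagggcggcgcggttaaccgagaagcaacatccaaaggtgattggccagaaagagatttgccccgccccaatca
Trib3, CARE, chr3:161275534-161275783, minus strand: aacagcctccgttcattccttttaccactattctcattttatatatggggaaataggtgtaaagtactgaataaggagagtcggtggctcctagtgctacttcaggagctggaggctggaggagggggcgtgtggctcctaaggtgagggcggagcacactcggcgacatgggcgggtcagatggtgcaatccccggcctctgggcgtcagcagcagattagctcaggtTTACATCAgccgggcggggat
Atf4, E-box, chr7:113684559-113684644, plus strand: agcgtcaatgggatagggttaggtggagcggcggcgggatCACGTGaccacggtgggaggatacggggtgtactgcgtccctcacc

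ERSE was found in Hspa5, Xbp1 and, as 2 copies, Hsp90b1, and in 0.0657% of all 33469 windows (22 windows). ERSE-II was found in Herpud1 and in 0.0418% of windows. CARE lay in Herpud1, Chac1 and Trib3 and in 3.4% of windows, and the E-box in Atf4 and in 5.59% of windows. The core of the xenobiotic response element to which AHR binds (XRE core, GCGTG) was present in 8 of the 9 windows, all but that of Hspa5, and in 25.9% of all windows; both of its matches in Hsp90b1 overlap an ERSE. Among the 9842 genes of the table with a window, 4225 held the XRE core, 782 the E-box and 201 CARE. In the same genes 15 held ERSE and 9 ERSE-II. The share with the XRE core is larger in these genes than over all windows, so 25.9% is a low background for the members. A match is a description of letters in this window and not a measured binding site.

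**Figure D1:**
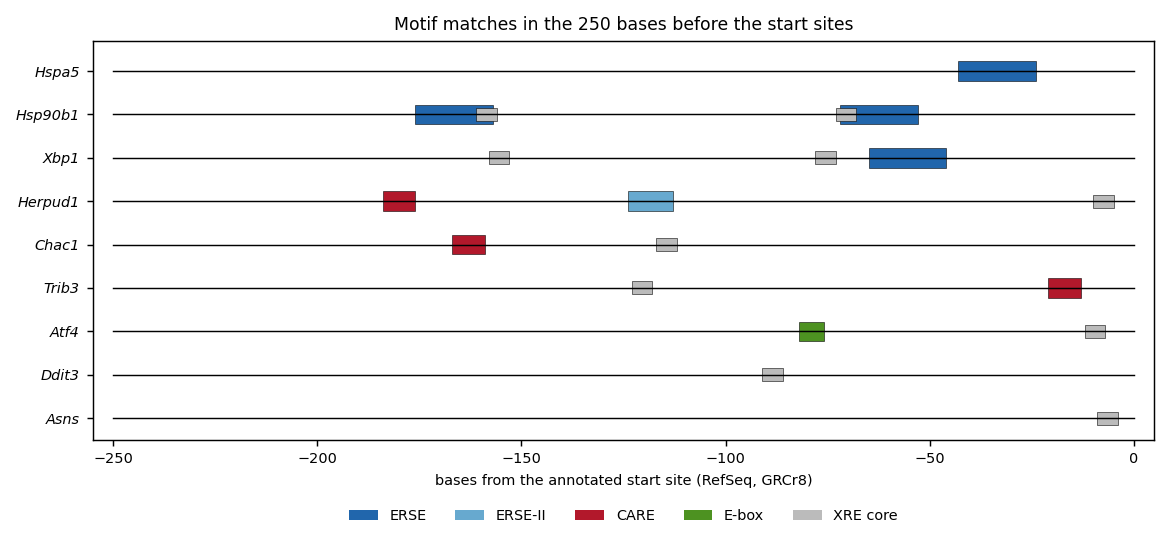
Positions of the motif matches in bases before the annotated start (x axis, 0 is the start) for the 9 genes with a RefSeq window, with 1 line per gene and 1 colour per motif. ERSE is seen in Hspa5, Hsp90b1 and Xbp1 and CARE in Herpud1, Chac1 and Trib3, while Ddit3 and Asns show only the XRE core in these 250 bases.

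On the deposited log2 values, myc−/− siCtrl and myc−/− + MYC form a first set, of 6 libraries. The remaining groups form a second one, of 12, on a different scale, so groups were compared only within a set. The leading component over all 18 libraries held 74.7% of the variance. Cells with and without MYC also differ in transfection within each set, and the 2 cannot be told apart. The values carry no counts and the read depth is unknown; the median SD between cultures over genes was 0.0486 (set of 6) and 0.0603 (set of 12). Ahr, the targeted gene, was lower by a log2FC of −1.29 with siAHR-2 and −1.39 with siAHR-5 (limma adjusted p = 0.000237 and 0.000216), while rat Myc still gave signal and was lower in MYC-expressing cells (−1.26 and −2.68), and the human transgene was not analysed here. All 10 fibroblast markers searched were listed and 14 of 17 markers of other cell types, and the levels of these 14 were mixed. Epcam stayed at or below 2.42 and Ptprc at or below 4.65 in every library, while Krt8 ranged from 6.02 to 9.05, Cd3e from 6.63 to 9.39, Cd68 from 6.76 to 7.55 and Krt19 from 2.42 to 7.73. With MYC 1 of these 14 was higher and 2 lower in the smaller set, and 1 and 3 in the larger set. The summed epithelial markers were higher with MYC, at 8.18 to 8.25 (log2) against 8.63 to 8.81 and, for the larger set, 7.76 to 7.92 against 8.77 to 9.11, and Krt8 was the one of these 4 that rose. The other types were lower or overlapped: skeletal muscle at 8.94 to 9.02 against 7.48 to 7.50 and at 9.54 to 9.68 against 7.66 to 7.84, leukocyte at 9.61 to 9.72 against 8.36 to 8.50 and at 8.47 to 8.56 against 7.93 to 8.11, endothelial at 7.80 to 7.93 against 7.66 to 7.67 and at 7.70 to 7.99 against 7.68 to 7.75, and neuron between 2.95 and 3.15 throughout. Col1a2, a defining fibroblast collagen, was itself near its lowest value (3.64 to 4.13), and the fibroblast markers were mostly lower with MYC. In the set of 6, 5 of 10 were lower and 1 higher past the cutoffs (limma; 7 lower and 3 higher at an unadjusted p below 0.05), the higher one being Col3a1 (log2FC 1.30), and for the set of 12 these numbers were 6 and 0 (8 lower and 0 higher). The log2 of their summed level ranged from 20.80 to 20.82 against 19.87 to 19.96 with MYC (set of 6) and from 21.95 to 22.18 against 20.21 to 20.24 (set of 12), and the part of this in the results that follow was not tested.

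The first comparison asks how these genes differ between MYC-expressing and myc−/− cells in the set of 6. Asns and Herpud1 were higher with MYC, by 1.75- and 1.74-fold, and Chac1, Trib3 and Ddit3 were lower, by 2.95-, 2.51- and 1.53-fold, while the groups overlapped for the chaperones Hspa5 and Hsp90b1. To pass, a gene had to differ by 1.5-fold or more with an adjusted p, from limma over all genes, no higher than 0.01. By this rule 5 of the 10 genes passed, 2 higher and 3 lower with MYC, where 26.8% of all genes passed (12.5% higher, 14.3% lower).

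Atf4, the transcription factor at the head of the arm, read 13.76, 13.76 and 13.67 in the myc−/− siCtrl cultures and 13.99, 14.06 and 14.11 in the myc−/− + MYC cultures. The groups did not overlap, and the log2FC of 0.32 (SE 0.0381, limma adjusted p = 1.23e-05), a fold of 1.25, lay under the fold cutoff. Asns, which makes asparagine and is a textbook ATF4 target, rose from 11.29, 11.25 and 11.26 to 11.997, 12.12 and 12.12. Every MYC culture was above every myc−/− culture, a log2FC of 0.81 (SE 0.0429, limma adjusted p = 1.21e-08).

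Other targets of ATF4 went the other way. Chac1, which breaks down glutathione, read 11.10, 11.13 and 11.38 without MYC and 9.59, 9.57 and 9.77 with it. It was 2.95-fold lower, a log2FC of −1.56 (SE 0.0795, limma adjusted p = 8.64e-09). Trib3, a pseudokinase that restrains ATF4 and CHOP, went from 10.95, 11.08 and 11.17 to 9.81, 9.74 and 9.68. No culture of one group reached the range of the other, and Trib3 was 2.51-fold lower with MYC (log2FC −1.33, SE 0.0623, limma adjusted p = 4.33e-09). Ddit3, which encodes the pro-apoptotic factor CHOP, read 10.79, 10.79 and 10.76 and then 10.20, 10.19 and 10.12, a smaller fall of 1.53-fold (log2FC −0.61, SE 0.0452, limma adjusted p = 2.06e-07). Atf3, a stress-induced repressor, was listed at low values, between 4.63 and 4.88 in the 6 libraries, and its log2FC of −0.15 was under the fold cutoff.

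Among the ER genes only Herpud1, an ER membrane protein of the degradation pathway, passed. It read 12.48, 12.47 and 12.42 in myc−/− siCtrl cells and 13.31, 13.28 and 13.18 in myc−/− + MYC cells, a log2FC of 0.80 (SE 0.0400, limma adjusted p = 7.42e-09). Xbp1, the transcription factor spliced by IRE1, read 12.89, 12.86 and 12.88 against 13.26, 13.25 and 13.24. Its groups were clearly parted, but the log2FC of 0.38 was below the fold cutoff. Hspa5, the main ER chaperone, read 16.68, 16.59 and 16.57 against 16.43, 16.60 and 16.58, and Hsp90b1, the ER member of the HSP90 family, 17.09, 16.97 and 16.96 against 17.01, 17.17 and 17.11. For both chaperones the groups overlapped, with log2FC of −0.08 (95% interval −0.18 to 0.02) and 0.09 (−0.01 to 0.19). Over the 10 genes the groups did not overlap for 8, against 78.8% of all genes. At an FDR below 5% with no fold cutoff 8 of the 10 passed, 4 higher and 4 lower, where 76.2% of all genes did (37.3% higher, 39% lower).

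**Figure D2:**
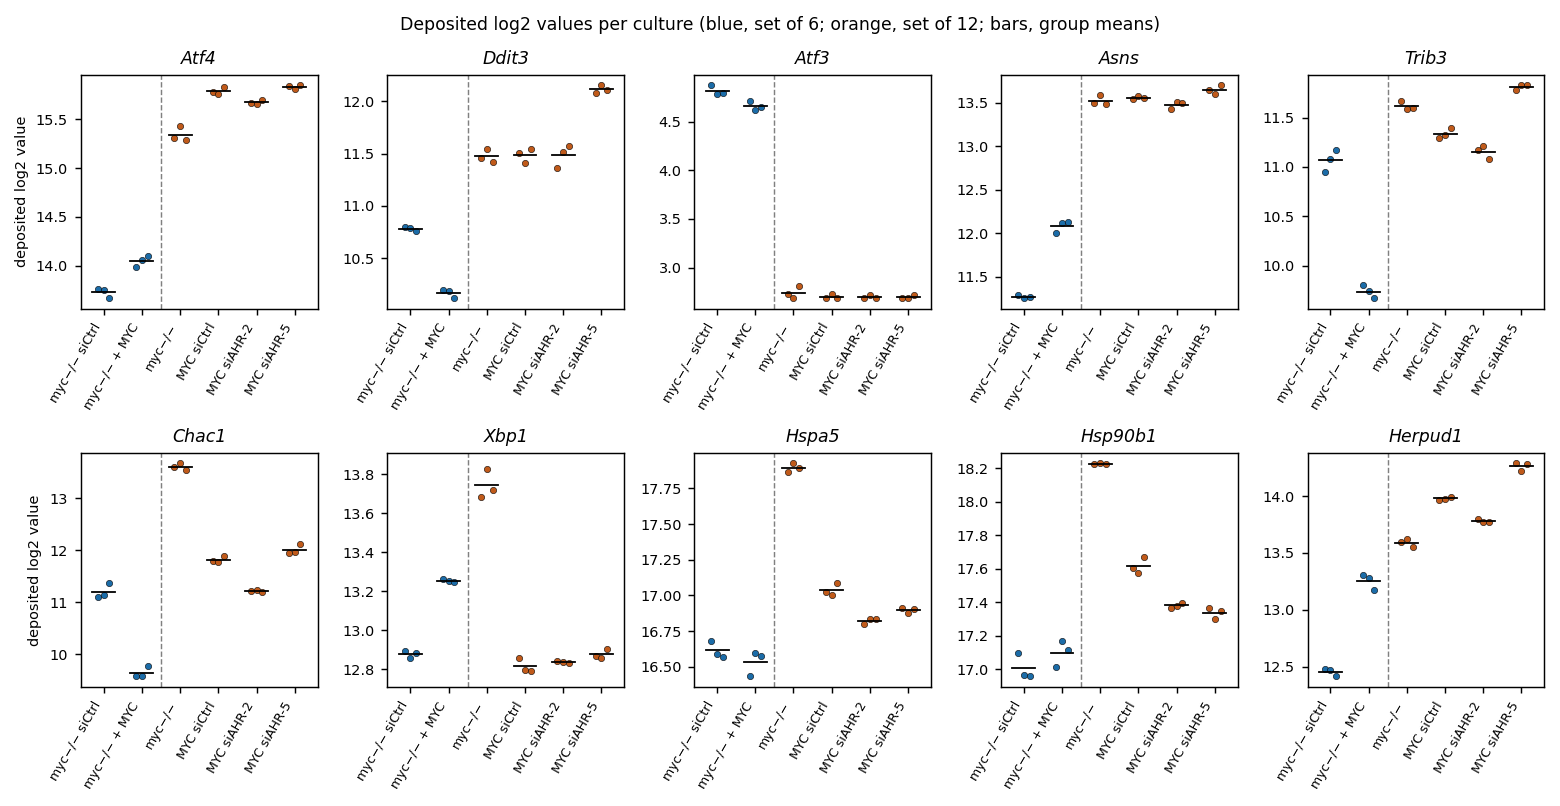
Deposited log2 value (y axis, a separate scale per gene) of each of the 10 genes in each culture by group; blue points are the set of 6, orange points the set of 12, bars are group means, and the dashed line parts the sets, whose levels are not comparable. Chac1 is lower with MYC in both sets, Hspa5, Hsp90b1 and Xbp1 are lower with MYC to the right of the line, and Ddit3 stands highest in the siAHR-5 cultures (12.08 to 12.15).

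Other genes of the pathways, from lists of ATF4 targets and ER functions, were read beside the members. ATF4 targets of amino acid synthesis passed as 4 higher and 1 lower of 14, with a median log2FC of 0.37 against −0.0038 over all genes. Pck2 (log2FC 1.45), the mitochondrial PEP carboxykinase, Psat1 (1.25) of serine synthesis and Gpt2 (1.09), an alanine transaminase, led these rises. Amino acid transporters were split, 3 higher and 3 lower of 9 (median −0.34), with Slc38a1 (1.84) and Slc1a5 (1.28), which carry glutamine, higher and the cystine carrier Slc7a11 (−1.84) lower. Regulatory and stress targets of ATF4 passed as 3 higher and 8 lower of 18 (median −0.53): Gdf15, a stress cytokine, was at −3.33 and Stc2, a secreted glycoprotein, at −2.27, while Ndrg1 was at 3.05. Past the cutoffs were 35.7% of the synthesis targets, 66.7% of the transporters and 61.1% of the regulatory and stress targets. Of all genes 26.8% passed (12.5% higher, 14.3% lower).

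ER chaperones and foldases passed as 2 higher and 5 lower of 25, with a median of −0.28; this is 28% of them, near the 26.8% of all genes. The prolyl isomerase Fkbp7 (1.64) and the disulfide isomerase Pdia5 (1.18) were higher, and Uggt1 (−1.25), which senses unfolded glycoproteins, was lower. Of the genes of ER-associated degradation (ERAD), 0 were higher and 2 lower of 16, namely Sel1l (−0.61) and Derl1 (−0.60), with 3 higher and 11 lower at an unadjusted p below 0.05 in limma, where 37.8% of all genes were higher and 39.7% lower; without myc−/− + MYC replicate 1 the count was 1. After quantile normalization 0 ERAD genes passed. ER translocation gave 1 higher of 19, the signal peptidase subunit Spcs3 (0.59), and 0 without myc−/− siCtrl replicate 1 or 3 or without myc−/− + MYC replicate 2 or 3. Genes of the XBP1-dependent secretory pathway gave 1 higher and 2 lower of 16, with the coat protein Sec31a at −1.01, the cargo receptor Surf4 at −0.64 and Sec23a at 0.60. Upstream of the members, Impact, an inhibitor of the eIF2 kinase GCN2, was the 1 gene of 9 past the cutoffs among eIF2 kinases and phosphatase subunits (0.64), and the site-2 protease Mbtps2 (1.03) and Creb3l1 (0.64), an ER-bound factor related to ATF6, were the 2 higher of 12 sensors and proteases.

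The same question in the set of 12 sets myc−/− + MYC siCtrl against untransfected myc−/− cells. Hspa5, Hsp90b1, Xbp1 and Chac1 were lower with MYC, by 1.53- to 3.47-fold, and no gene of the 10 was higher past the cutoffs. With limma 4 of the 10 passed, all lower, where 25.5% of all genes passed (10.8% higher, 14.7% lower); 2 of the 10 were higher and 5 lower at an unadjusted p below 0.05, where 33% of all genes were higher and 34.3% lower.

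Hspa5, the chaperone that binds unfolded chains in the ER and holds its sensors inactive, read 17.87, 17.92 and 17.89 in the myc−/− cultures and 17.03, 17.00 and 17.08 in the MYC siCtrl cultures. The fall was 1.81-fold (log2FC −0.86, SE 0.0371, limma adjusted p = 7.72e-06). Hsp90b1 was at 18.23 in all 3 myc−/− cultures and at 17.60, 17.57 and 17.67 with MYC. Its log2FC of −0.61 (SE 0.0383, limma adjusted p = 3.37e-05) was just past the cutoff and was −0.34 after quantile normalization and −0.57 after median centring, which end the call. Annotated Hsp90b1 pseudogenes could share its reads. Xbp1 read 13.68, 13.82 and 13.72 against 12.86, 12.80 and 12.79, with wide separation of the groups and a log2FC of −0.93 (SE 0.0448, limma adjusted p = 1.20e-05). Among the 9 windows, those of Hspa5, Hsp90b1 and Xbp1 are the ones with an ERSE.

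Chac1 moved most of the 10: it read 13.61, 13.67 and 13.54 without MYC and 11.79, 11.77 and 11.89 with it. It was 3.47-fold lower, a log2FC of −1.80 (SE 0.0493, limma adjusted p = 1.48e-06). Trib3 read 11.66, 11.59 and 11.60 against 11.29, 11.33 and 11.39, lower in every MYC culture by a log2FC of −0.28 that was under the fold cutoff. Ddit3 (11.46, 11.55 and 11.42 against 11.50, 11.40 and 11.54) and Asns (13.50, 13.58 and 13.48 against 13.54, 13.58 and 13.55) overlapped between the groups. Their log2FC were 0.01 (95% interval −0.13 to 0.14) and 0.03 (−0.05 to 0.12). Atf3 stayed between 2.69 and 2.81 in these 6 libraries, with a log2FC of −0.04.

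Atf4 itself read 15.31, 15.43 and 15.29 in myc−/− cells and 15.79, 15.76 and 15.83 with MYC, and Herpud1 13.60, 13.62 and 13.55 against 13.97, 13.97 and 13.99. Both were above the myc−/− range in every MYC culture, with log2FC of 0.45 (SE 0.0454, limma adjusted p = 0.000266) and 0.39 (SE 0.0278, limma adjusted p = 5.95e-05), under the fold cutoff. After quantile normalization Atf4 reached 0.62 and passed. The groups did not overlap for 7 of the 10 genes, against 70.5% of all genes. The FDR cutoff of 5% alone passed 2 higher and 5 lower, where it passed 64.7% of all genes (31.6% higher, 33.1% lower).

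**Figure D3:**
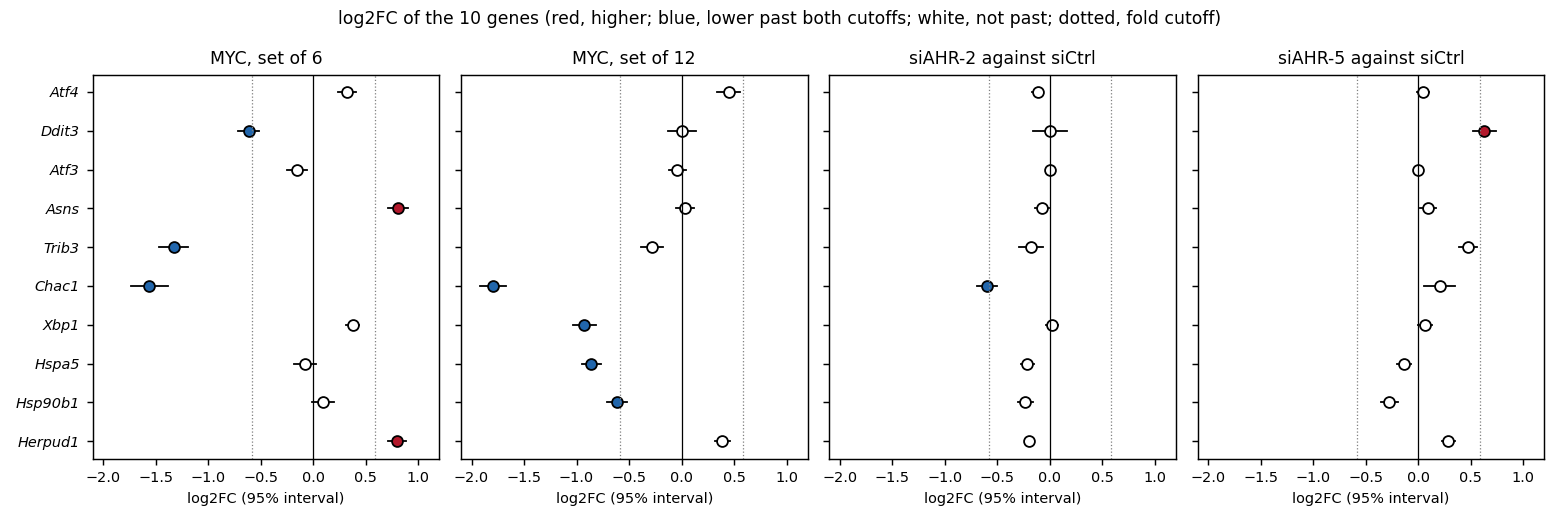
log2FC (x axis, with 95% intervals) of the 10 genes in the MYC comparison of each set and with each siRNA against siCtrl; filled points passed both cutoffs, and dotted lines mark the fold cutoff. Chac1 lies at −1.56 and −1.80 in the MYC panels and at −0.60 and 0.20 with siAHR-2 and siAHR-5.

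Of the ER chaperones and foldases in the set of 12, 0 were higher and 13 lower of 25, 52% of them past the cutoffs where 25.5% of all genes were (14.7% lower), with a median log2FC of −0.63 against −0.00014 over all genes. The isomerase Fkbp2 (−1.35), the disulfide isomerase Pdia4 (−1.17) and the BiP cochaperone Dnajb9 (−1.06) changed most. In limma 4 were higher and 18 lower at an unadjusted p below 0.05 (33% and 34.3% of all genes), and after quantile normalization 8 of the 25 passed, all lower. ERAD genes gave 0 higher and 5 lower of 16 (3 higher and 11 lower at an unadjusted p below 0.05), led by the ligase partner Sel1l (−1.20) and the lectin Edem1 (−1.08), which takes misfolded glycoproteins to degradation. The translocation list held 1 lower gene of 19, the channel subunit Sec61a1 (−0.62), and the secretory list 3 lower of 16, Sec31a (−1.03), the KDEL receptor Kdelr3 (−0.86) and Surf4 (−0.68). After quantile normalization 0 translocation genes and 3 ERAD genes passed.

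ATF4 targets of amino acid synthesis gave 2 higher and 1 lower of 14 (median 0.27), with cystathionine gamma-lyase Cth at 1.10, Gpt2 at 0.97 and Phgdh, the first enzyme of serine synthesis, at −0.70. Of the transporters 2 were higher and 3 lower of 9 (median −0.24): Slc38a1 (1.56) and Slc1a5 (1.42) were higher and the leucine carrier Slc7a5 (−1.38) lower. Regulatory and stress targets gave 3 higher and 7 lower of 18 (median −0.35), among them Stc2 at −3.61, Ndrg1 at 3.34 and the death receptor Tnfrsf10b at 2.59. Past the cutoffs were 21.4% of the synthesis targets, 55.6% of the transporters and 55.6% of the regulatory and stress targets. Of all genes 25.5% passed (10.8% higher, 14.7% lower). Impact was again the 1 higher eIF2 regulator of 9 (1.04), a count of 2 without myc−/− replicate 1 or without MYC siCtrl replicate 2. Among sensors and proteases Mbtps2 was higher (0.76) and Creb3l1 lower (−1.47), where Creb3l1 had been higher in the set of 6 (the difference of the effects passed the cutoffs, limma adjusted p = 4.28e-12). Of the 138 genes over all lists, 17 were higher and 21 lower in the first comparison, and 9 and 34 in this one. That is 27.5% and 31.2% of the listed genes, beside 26.8% and 25.5% of all genes, so the first share is near the background.

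**Figure D4:**
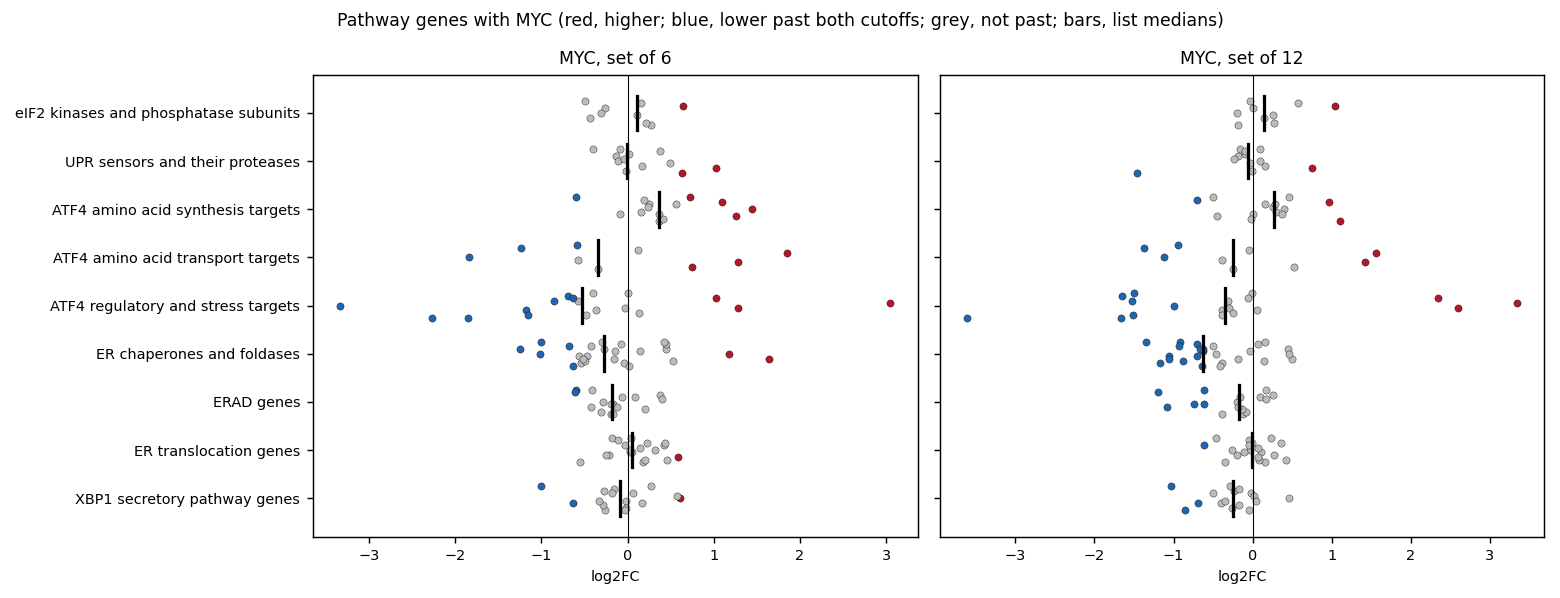
log2FC (x axis) of each listed pathway gene with MYC, by list (y axis), in the set of 6 and the set of 12; red and blue points passed both cutoffs higher or lower, grey points did not, and bars are list medians. The median of ER chaperones and foldases lies at −0.28 in the set of 6 and at −0.63 in the set of 12.

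The 2 MYC effects were set against each other in 1 limma fit of 12 libraries (set of 12 minus set of 6). The sets were scaled separately. Transfection also runs the opposite way, with siCtrl on the myc−/− cells in the set of 6 and on the MYC-expressing cells in the set of 12. The difference between the effects includes the scaling and the transfection of both arms. For 6 of the 10 genes it passed the cutoffs, 2 higher and 4 lower, where 16.5% of all genes did (6.79% higher, 9.67% lower). An FDR below 5% alone gave 2 higher and 5 lower, where it gave 54.9% of all genes (24.8% higher, 30.1% lower). Xbp1 differed most, at −1.30 (SE 0.0562, limma adjusted p = 7.35e-11), with values of 0.38 and −0.93 in the sets. Hspa5 (−0.78), Hsp90b1 (−0.70) and Asns (−0.78) had the lower effect in the set of 12, and Trib3 (1.04) and Ddit3 (0.62) the higher one. Chac1 (−0.24, 95% interval −0.46 to −0.01) and Atf4 (0.13, −0.01 to 0.26) did not pass, nor did Herpud1 (−0.41) or Atf3 (0.11). After quantile normalization Hsp90b1 no longer passed (−0.40).

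Promoter windows with an ERSE belong to 15 genes of the table. With MYC 3 of them were higher and 0 lower in the smaller set, and 1 was higher and 4 lower in the larger one. That is 20% and 33.3% of the 15, beside 26.8% and 25.5% of all genes. The 4 lower ones were Calr, an ER chaperone, and the members Hspa5, Hsp90b1 and Xbp1, described above. The median log2FC of the 15 genes was 0.092 and −0.022, against −0.0080 and −0.00012 for the other genes with a window. Of the 201 genes with CARE, 34 were higher and 25 lower in the smaller set, and 21 and 29 in the larger one, 29.4% and 24.9% of them, shares near the 26.8% and 25.5% of all genes.

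The AHR comparisons ask what each siRNA did to these genes in MYC-expressing cells, against the same 3 siCtrl cultures, which are also the MYC-expressing group of the comparison before. With siAHR-2 the one gene past the cutoffs was Chac1, 1.52-fold lower, and Hspa5, Hsp90b1 and Herpud1 were lower by less. That is 1 of the 10 genes in limma, where 0.47% of all genes passed (0.159% higher, 0.311% lower). At an unadjusted p below 0.05, 0 were higher and 7 lower, where 19.9% of all genes were higher and 20.5% lower. Chac1 read 11.79, 11.77 and 11.89 with siCtrl and 11.22, 11.23 and 11.20 with siAHR-2. The groups lie far apart, but its log2FC of −0.60 (SE 0.0368, limma adjusted p = 0.000611) is close to the cutoff and was −0.56 without the siCtrl culture replicate 3, and with the replicate number as a block the adjusted p was 0.0137. Marker sums moved in these comparisons too: the fibroblast sum was 20.21 to 20.24 (log2) with siCtrl, 19.98 to 20.02 with siAHR-2 and 19.94 to 19.96 with siAHR-5. The leukocyte sum was 7.93 to 8.11 with siCtrl and 8.15 to 8.22 with siAHR-2, and the endothelial sum 7.68 to 7.75 with siCtrl and 7.83 to 8.02 with siAHR-5, while the sums of the other types, and of these types with the other siRNA, overlapped with siCtrl. Of the single markers, 1 passed the cutoffs, Thy1 of the fibroblast list, higher with siAHR-5 (log2FC 0.75), and the part of these in the results was not tested.

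Hspa5 read 16.80, 16.83 and 16.84 with siAHR-2 against 17.03, 17.00 and 17.08, Hsp90b1 17.37, 17.38 and 17.40 against 17.60, 17.57 and 17.67, and Herpud1 13.80, 13.78 and 13.77 against 13.97, 13.97 and 13.99. In each of the 3 the siAHR-2 cultures were all below the siCtrl cultures, with log2FC of −0.22 (limma adjusted p = 0.00329), −0.23 (0.00325) and −0.20 (0.000926), all under the fold cutoff. Atf4 (15.67, 15.66 and 15.70) was lower by a log2FC of −0.12 and Trib3 (11.17, 11.21 and 11.08) by −0.18, with adjusted p of 0.0138 and 0.0349 in limma. For Asns (13.43, 13.51 and 13.50) the log2FC was −0.08 (limma adjusted p = 0.0869). Ddit3 read 11.37, 11.51 and 11.57, spanning the siCtrl range, and its log2FC was 0.00 (95% interval −0.16 to 0.16). Xbp1 (0.02) and Atf3 (−0.00) also overlapped with siCtrl. At an FDR below 5% with no fold cutoff 6 of the 10 genes were lower and 0 higher, where 29.3% of all genes passed (15.5% lower, 13.7% higher). The groups did not overlap for 7 of the 10, against 43.3% of all genes. None of the 138 listed pathway genes passed the cutoffs in limma; at an unadjusted p below 0.05, 22 were higher and 63 lower, where 19.9% of all genes were higher and 20.5% lower, and 13 of the 25 ER chaperones and foldases were lower at an FDR below 5% against 1 higher.

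With siAHR-5 the CHOP gene Ddit3 rose past the cutoffs, Trib3 and Herpud1 were higher by less, and Hsp90b1 and Hspa5 were lower without passing the fold cutoff. Again 1 of the 10 genes passed in limma, where 2.32% of all genes did (1.47% higher, 0.849% lower). At an unadjusted p below 0.05, 5 were higher and 2 lower, where 26.5% of all genes were higher and 21.2% lower. Ddit3 read 11.50, 11.40 and 11.54 with siCtrl and 12.08, 12.15 and 12.11 with siAHR-5. It was 1.55-fold higher in a comparison without overlap (log2FC 0.63, SE 0.0440, limma adjusted p = 0.000531), and 0.57 after median centring, which ends the call. Trib3 read 11.78, 11.83 and 11.83 against 11.29, 11.33 and 11.39, a log2FC of 0.47 (SE 0.0352, limma adjusted p = 0.000577) under the fold cutoff. Herpud1 (14.29, 14.22 and 14.28) was above its siCtrl values by 0.29 (limma adjusted p = 0.000719), and Chac1 (11.95, 11.97 and 12.13) by 0.20 (0.0472).

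Hsp90b1 read 17.36, 17.30 and 17.34 with siAHR-5, below every siCtrl culture, a log2FC of −0.28 (SE 0.0321, limma adjusted p = 0.00190), and Hspa5 16.91, 16.88 and 16.90, a log2FC of −0.14 (limma adjusted p = 0.0102). Atf4 (15.85, 15.81 and 15.85) overlapped with siCtrl, with a log2FC of 0.04 (95% interval −0.02 to 0.10). Asns (13.64, 13.60 and 13.70) lay above its siCtrl values by 0.09 (limma adjusted p = 0.0621) and Xbp1 (12.87, 12.86 and 12.91) by 0.06 (0.123). Atf3 stayed between 2.69 and 2.72. For 8 of the 10 genes the groups did not overlap, against 50.5% of all genes. An FDR below 5% alone passed 4 higher and 2 lower, where it passed 39.2% of all genes (21.1% higher, 18.1% lower).

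With siAHR-5, 5 of the 138 listed pathway genes were higher and 6 lower, 7.97% of them, where 2.32% of all genes passed. The amino acid transporters gave 2 higher and 0 lower of 9 (median 0.32 against 0.013 over all genes; 8 higher and 1 lower at an unadjusted p below 0.05 in limma, where 26.5% of all genes were higher and 21.2% lower), the glycine carrier Slc6a9 (0.68) and Slc7a11 (0.65). After quantile normalization 1 of the 9 passed. Amino acid synthesis gave 0 higher and 2 lower of 14 (1 higher and 7 lower at an unadjusted p below 0.05), the transaminases Got1 (−1.05) and Gpt2 (−0.67). Regulatory and stress targets gave 2 higher and 1 lower of 18, with the AP-1 repressor Jdp2 at 0.75, the mTORC1 inhibitor Ddit4 at 0.66 and Ndrg1 at −0.85. Of the ER lists, Sec61a1 (−1.01) was lower and Spcs3 (0.66) higher among 19 translocation genes, and Sel1l (−0.87) and the conjugating enzyme Ube2g2 (−0.66) were the 2 lower of 16 ERAD genes, 1 with the replicate number as a block. The 25 ER chaperones and foldases gave 0 past the cutoffs, with 3 higher and 15 lower at an unadjusted p below 0.05 in limma.

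Between the siRNAs, Ahr was not called different: the log2FC of siAHR-5 against siAHR-2 was −0.11 (95% interval −0.25 to 0.04). Set directly against each other, they parted at Chac1, Trib3 and Ddit3 of the ATF4 arm. With limma 3 of the 10 genes passed, all higher with siAHR-5, where 2.18% of all genes passed (1.33% higher); 7 were higher and 0 lower at an FDR below 5%, where 39.1% of all genes passed (22.1% higher, 17% lower). Chac1 differed by 0.80 (SE 0.0530, limma adjusted p = 0.000316), Trib3 by 0.65 (SE 0.0400, limma adjusted p = 0.000252) and Ddit3 by 0.63 (SE 0.0584, limma adjusted p = 0.000879). The groups did not overlap for 9 of the 10, against 49.5% of all genes. For each of these 3 the highest siAHR-2 culture was below the lowest siAHR-5 culture, and Ddit3 was at 0.57, under the cutoff, without siAHR-2 replicate 1. Herpud1 differed by 0.48 (SE 0.0222, limma adjusted p = 0.000115), Asns by 0.17 and Atf4 by 0.16 (limma adjusted p = 0.00162), under the fold cutoff. For Hspa5 the difference was 0.08, for Xbp1 0.04 (95% interval −0.01 to 0.09) and for Hsp90b1 −0.04 (−0.09 to 0.01). Beyond the members, Slc6a9 (0.86), Slc7a11 (0.78) and Jdp2 (0.69) were higher with siAHR-5 and Got1 (−0.84), Sec61a1 (−0.79), Ube2g2 (−0.78), Shmt2 (−0.69) and Gpt2 (−0.65) lower, the 3 and 5 genes of 138 that passed. Fibroblast markers moved here too, with 2 of the 10 past the cutoffs, both higher with siAHR-5 (log2FC up to 0.67). Of the 14 markers of other cell types 0 passed, and the part of these in the results was not tested.

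The order of the group means in the set of 12 differed by gene. Chac1 was highest in myc−/− cells (13.61), followed by siAHR-5 (12.02), siCtrl (11.81) and siAHR-2 (11.22). Trib3 was likewise lowest with siAHR-2 (11.16), but was highest with siAHR-5 (11.81) and next in myc−/− cells (11.62). Hspa5 and Hsp90b1 were highest in myc−/− cells (17.90 and 18.23), then with siCtrl (17.04 and 17.62), and lower with either siRNA. Herpud1 and Atf4 were lowest in myc−/− cells (13.59 and 15.34) and highest with siAHR-5 (14.26 and 15.84), though of the genes ranked here none, Atf4, Herpud1, Trib3 and Chac1 included, passed the cutoffs between siAHR-5 and siCtrl. The siRNA groups were not tested against myc−/− cells.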

How the data were processed

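RNA-seq was measured in 18 libraries in 6 groups of 3 cultures, grouped by the sample titles. The authors used the NGS-QC-Toolkit on the reads and HISAT2 (version 2.1.0) for alignment to rn6, dropped genes under 10 reads in total, applied DESeq2 normalization and deposited log2 values for 13188 genes. The counter and annotation are not given in the sources used here. The table is labelled log CPM, but off the log scale the libraries sum to between 86.3 and 161 times a CPM total, so how the log2 values were made is unknown and its effect on log2FC of low genes was not tested. The depth and the precision it gives are unknown. Value columns without a sample numbered 0, and 0 pairs of libraries held identical values.

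Values were tested as deposited with limma 3.58.1 in R 4.3.3 (lmFit, eBayes with trend), with Benjamini-Hochberg adjustment over all 13188 genes and only the groups compared in a fit; the fits were tested on simulated data. A change of 1.5-fold or more and an adjusted p of 0.01 or less were required. The members, the lists (151 symbols, alternative names included; 138 in the table) and the tests were chosen with earlier results of these data known. Named genes were the 10 members, Ahr, Myc, up to 3 genes per list and comparison with the largest log2FC among those past the cutoffs without overlap, and the 5 genes most like Atf4. Epcam, Ptprc, Krt8, Krt19, Cd3e, Cd68, Thy1, Col3a1, Col1a2 and Calr were named after their values were seen. Alternatives were the cutoff, the samples in the fit, no trend, quantile normalization, median centring, a filter at a mean log2 value of 1, adding a pseudocount of 1 off the log scale, the replicate block and leaving out each culture. Promoter windows came from RefSeq (GRCr8) and were searched with Python 3.11.15; figures used matplotlib 3.10.9.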

Additional observations from a re-analysis of the deposited data

Results flagged for a closer look

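Between the siRNAs against AHR, siAHR-5 minus siAHR-2, the test of the difference itself passed the cutoffs for 3 genes: Ddit3 at 0.63 (SE 0.0584, limma adjusted p = 0.000879), Trib3 at 0.65 (SE 0.0400, limma adjusted p = 0.000252) and Chac1 at 0.80 (SE 0.0530, limma adjusted p = 0.000316), each with all 3 siAHR-5 cultures above all 3 siAHR-2 cultures.

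The MYC effects of the sets, set of 12 minus set of 6, differed past the cutoffs for 6 genes. Ddit3 differed by 0.62 (SE 0.0727, limma adjusted p = 4.32e-06) and Trib3 by 1.04 (SE 0.0840, limma adjusted p = 7.37e-08). Asns differed by −0.78 (SE 0.0608, limma adjusted p = 5.50e-08), Xbp1 by −1.30 (SE 0.0562, limma adjusted p = 7.35e-11), Hspa5 by −0.78 (SE 0.0675, limma adjusted p = 1.64e-07) and Hsp90b1 by −0.70 (SE 0.0683, limma adjusted p = 5.60e-07). The sets differ in scale and in which group was transfected, which cannot be told apart from a difference in the effect of MYC.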

How the results depend on the processing

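At an FDR below 5% with no fold cutoff, 8 of the 10 genes passed with MYC in the smaller set, 7 in the larger, 6 with siAHR-2, 6 with siAHR-5 and 7 between the siRNAs. With the replicate number as a block the count was 0 with siAHR-2, where Chac1 had an adjusted p of 0.0137 and 0 of 13188 genes passed, against 62 without the block (21 higher and 41 lower); no other call of the 10 genes changed. Whether cultures with the same number share a batch is unknown. Their deviations did not correlate above 0.1 in every pair of any comparison (mean r from −0.0287 to 0.0974). From 0 to 4 of 6 libraries correlated best with their own number. With siAHR-5 the pairs were at 0.218, 0.139 and −0.0650, and with so few cultures these values cannot decide whether a batch was shared. After median centring 0 of the 10 passed with siAHR-5. Leaving out each culture in turn, the count ranged from 0 to 1 with siAHR-2, from 2 to 3 between the siRNAs, and kept its value in the other comparisons. Values near 0 changed sign in 6 scaling fits: median centring gave Atf3 0.0010 with MYC in the set of 12, Ddit3 −0.030 and Xbp1 −0.011 with siAHR-2 and Atf4 −0.017 with siAHR-5, and quantile normalization gave Ddit3 −0.026 with siAHR-2 and Hsp90b1 0.011 between the siRNAs. Leaving out 1 culture, Ddit3 ranged from −0.023 to 0.044 with MYC in the set of 12 and from −0.044 to 0.059 with siAHR-2, and Atf3 from −0.012 to 0.012 with siAHR-2, from −0.012 to 0.012 with siAHR-5 and from −0.012 to 0.012 between the siRNAs. The cause of these changes was not tested. Scaling also moved the split of calls over all genes: with siAHR-5 from 194 higher and 112 lower to 140 and 165 after median centring and 131 and 128 after quantile normalization, with siAHR-2 from 21 and 41 to 15 and 53 after median centring, and for the difference of MYC effects from 896 and 1275 to 1148 and 1036 after median centring and 1001 and 1152 after quantile normalization. With MYC in the set of 6 the split went from 1653 higher and 1884 lower to 1799 and 1684 after quantile normalization. In the set of 12 it went from 1425 and 1936 to 1754 and 1630. Median centring left more genes lower, with 1492 higher and 2046 lower (set of 6) and 1603 and 1791 (set of 12). Of the pathway list counts, 68 moved by over 1.5 times and 400 did not, over the alternatives that kept all cultures; under quantile normalization ERAD genes past the cutoffs numbered 0 (set of 6) and 3 (set of 12), and translocation genes 4 and 0. Without siAHR-2 replicate 3 or siCtrl replicate 1, 1 translocation gene was higher with siAHR-2. The depth of the libraries is unknown, so what depth limits cannot be given.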

Other observations

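Over the 12 libraries of the set of 12, the genes whose values were most like those of Atf4 by Pearson's r were Akr1c19 (0.992), Mphosph6 (0.991), Clk1 (0.989), Sms (0.989) and Lyplal1 (0.988). Among the members r with Atf4 was 0.88 for Herpud1, 0.53 for Ddit3, 0.51 for Asns, −0.051 for Trib3, −0.59 for Atf3, −0.77 for Chac1, −0.87 for Hsp90b1, −0.88 for Hspa5 and −0.91 for Xbp1. These points share libraries and fall into 4 groups, so r mostly restates the group means and is given without a p. With the group means removed, r over the same libraries was positive for those 4 lowest members, at 0.61 for Chac1, 0.49 for Hsp90b1, 0.73 for Hspa5 and 0.69 for Xbp1, and kept its sign for the other 5. Of these 5, Atf3 lay between 2.69 and 2.81 in the set of 12, its mean at percentile 9.03 of all genes. Its r, with or without the group means, therefore rests on small differences near its lowest value. Over the 6 libraries of the other set, in 2 groups, r was 0.98 for Asns, 0.95 for Xbp1, 0.95 for Herpud1, 0.71 for Hsp90b1, −0.33 for Hspa5, −0.88 for Atf3, −0.96 for Chac1, −0.97 for Ddit3 and −0.98 for Trib3, so that of Ddit3, Xbp1 and Hsp90b1 changed sign between the sets. With the group means removed in these 6 libraries, r was −0.41 for Xbp1, −0.34 for Herpud1 and 0.79 for Hspa5, and the other 6 kept their sign. The 5 genes most like Atf4 were chosen on r in the set of 12. Their r with the group means removed was 0.65 to 0.90 there. Over the 6 libraries r was 0.90 to 0.98. With the group means removed in these 6, r was −0.50 for Akr1c19, 0.64 for Mphosph6, 0.48 for Clk1, −0.22 for Sms and −0.78 for Lyplal1.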
